A study of Mus musculus with 4 samples.

Results

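The RNA splicing regulators described here are 91 genes of 18193 genes measured on 4 mouse arrays. They were taken by name from 9 families: SR proteins (Srsf), heterogeneous nuclear ribonucleoproteins (Hnrnp), subunits of splicing factors 3a and 3b (Sf3a and Sf3b), polypyrimidine tract-binding proteins (Ptbp), muscleblind-like proteins (Mbnl), CELF proteins (Celf), Rbfox proteins, Nova proteins and numbered RNA-binding motif genes (Rbm). Each gene was represented by the brightest of its probe sets that carry a single gene symbol, and 87 of the 91 were bright enough to be tested. A further 7 symbols that fit these names occur only on probe sets shared with other symbols and were left out, among them Rbm3, Rbm10, Rbm4 and Hnrnpa3. The Rbm name is broader than splicing. It takes in the antisense transcripts Rbm3os and Rbm46os, and genes whose best known work lies elsewhere, such as Rbm15b in RNA methylation and Rbm46 in meiosis.

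The cells were CGR8, an established mouse embryonic stem (ES) cell line, grown on gelatin in medium with serum replacement and no feeder cells named. The 2 arrays of the first group held RNA of cells kept in 1000 U/ml of LIF, leukemia inhibitory factor. The 2 arrays of the second group held RNA of cells given the same kind of medium lacking LIF, and the design text puts the culture at 2 days. LIF signals through the transcription factor Stat3 and holds ES cells in the undifferentiated state. The labels number the arrays 1 and 2 in each group without saying that they came from separate cultures. Whether the array-to-array spread behind the p-values includes spread between cultures is therefore not known.

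Splicing removes introns from a pre-mRNA, and the same pre-mRNA can be joined in different ways in different cells. SR proteins mostly promote the use of exons near their binding sites and hnRNPs often oppose it, while the Sf3a and Sf3b subunits belong to the U2 particle that recognises the intron's branch point. Ptbp, Mbnl, Celf, Rbfox and Nova proteins change in amount as cells differentiate. In ES cells low activity of Mbnl proteins keeps splicing patterns typical of pluripotent cells, and the passage from Ptbp1 to Ptbp2 accompanies neural differentiation. The arrays measured transcript amounts of these regulators, not the splicing of their targets.

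Over the 87 regulators the correlation between arrays was 0.982 within the LIF group and 0.978 within the group lacking it, a description across genes that are no replicates of each other. Over all tested genes it was 0.962 and 0.948. Between same-numbered arrays of the 2 groups the correlation was 0.985 for number 1 and 0.991 for number 2 over the regulators. Over all tested genes these values were 0.952 and 0.953. For the regulators, same-numbered arrays of different groups thus correlated more closely than the 2 arrays of a group. The arrays numbered 2 differed from those numbered 1 in both groups. A 3' probe set for 18S ribosomal RNA gave 462 and 451 for number 1, but 5150.4 and 2990.4 for number 2. The ES cell marker Pou5f1 read 9034.8 and 8245.7 with LIF against 7211.7 and 10631.6 without it, and 8 of 8 ES cell markers were above the filter on low signals. For 5 of the 8 both arrays without LIF were below both with LIF, against 15.2% of all tested genes. Among them was Nanog (10137 and 14229 with LIF, 3553 and 5725 without LIF). Lin28a lay apart in the other direction (3233 and 2873 with LIF, 5179 and 6026 without LIF). The summed signal of 10 primitive endoderm markers was 5498.5 and 13663 with LIF against 6289 and 21670 without it, higher on the arrays numbered 2 of both groups. Sums for 9 neural markers were 2573.9 and 1555.8 with LIF against 3661 and 1773 without it, higher on the arrays numbered 1. Sums were 941.3 and 800.1 against 1383 and 964.5 for 8 muscle and heart markers, and 1569 and 582 against 2563.6 and 1045.1 for 8 fibroblast markers. None of the measured markers was listed at 0, and no tested marker on these 5 lists passed the limma test.

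Most splicing regulators differed little between cells with and without LIF. Of the 87 tested, 0 had an adjusted p under 0.05 in the limma fit, against 0.145% of all tested genes, and the smallest adjusted p of any of them was 0.358. Before adjustment 3 regulators had a p under 0.05, Ptbp2, Celf2 and Rbm15b, all higher without LIF. That is 3.45% of the regulators against 10.9% of all tested genes. The log2 difference (without LIF minus with LIF) had a median of -0.03 over the regulators and of 0.09 over all tested genes. It lay within 0.5 of 0 for 75 of the 87 (86.2%, against 69.2% of all tested genes).

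A small difference with a wide interval would say little, so the 95% interval of each difference was set against a 2-fold change. For 67 of 87 regulators (77%) the whole interval lay inside a 2-fold change in either direction, which held for 45.9% of all tested genes. This count was made with the deposited scaling only. With a common median on every array the regulators' median difference was -0.32 instead of -0.03, and the count was not repeated. Precision followed brightness. The median standard error (SE) of the regulators was 0.17 for the 14 with a mean signal over 10000, 0.19 for the 47 between 1000 and 10000, 0.30 for the 19 between 100 and 1000, and 0.48 for the 7 under 100. The intervals lay inside 2-fold for 14, 45, 8 and 0 of them, and for 95.1%, 86.2%, 47.5% and 0.0745% of all tested genes in the same ranges. The range from 1000 to 10000 held 54.0% of the regulators and 27.4% of all tested genes, and the range over 10000 held 16.1% and 2.10%. The median absolute log2 difference of the regulators was 0.11 in both of these ranges. For all tested genes it was 0.17 between 1000 and 10000 and 0.11 over 10000. Between 100 and 1000 it was larger for the 19 regulators (0.39) than for all tested genes (0.28), and under 100 it was 0.35 for the 7 regulators and 0.59 for all tested genes. A bright signal reports the probe set as well as the transcript, so signals of different genes are not compared here.

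**Figure D1:**
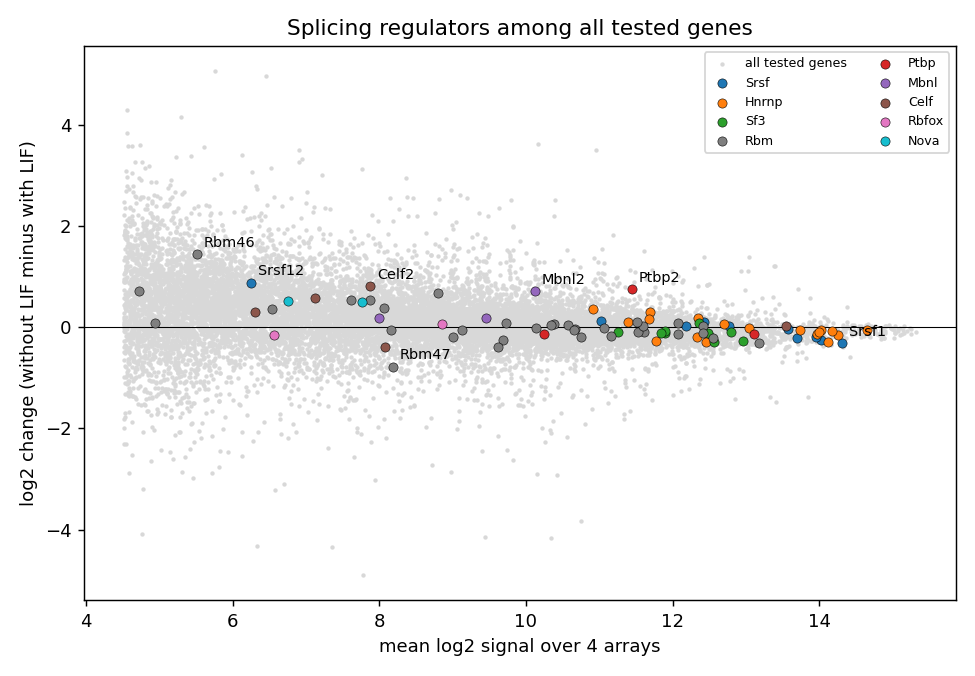
The log2 difference between the groups (without LIF minus with LIF) is plotted against the mean log2 signal over 4 arrays for all 14445 tested genes (grey) and the 87 tested splicing regulators (coloured by family). The regulators gather at high signals close to 0, while Rbm46 (1.45), Srsf12 (0.88), Celf2 (0.81) and Ptbp2 (0.76) lie highest and Rbm47 (-0.78) lowest.

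The groups of arrays did not overlap for 15 regulators that read higher without LIF (17.2%, against 27.3% of all tested genes) and for 14 that read lower (16.1%, against 15.2%). Only Rbm46 combined this with a difference of 2-fold or more, which is 1 of 87 (1.15%) in the upward direction against 7.36% of all tested genes. In the downward direction 0 did so, against 2.12%. The scaling of the arrays sets the balance of directions. With the deposited values 44.8% of the tested regulators read higher without LIF, with quantile normalization 52.9% did, and with a common median on every array 19.5% did, while the median of all tested genes moved from 0.09 to 0.02 and -0.20. Of all tested genes 59.4% read higher with the deposited values, from 71.6% of those with signals under 100 to 24.0% of those over 10000.

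SR proteins, which bind exonic enhancers and recruit the splicing machinery, leaned in neither direction, with 5 higher and 5 lower. Of the 10 tested, 0 passed, the median log2 difference was 0.00, and 9 had an interval inside 2-fold. Srsf1, the founding SR protein, read 21714 and 23416 with LIF against 19335 and 17168 without it, so both arrays without LIF lay below both with LIF. The difference was -0.31 (1.24-fold; SE 0.16; interval -0.69 to 0.08; adjusted p = 0.556). All 7 of its probe sets above the filter had negative differences, from -0.81 to -0.08. The value of -0.81 came from a dim probe set with overlapping groups, at 43.5 and 50.9 with LIF against 62.4 and 11.6 without it. The next lowest was the -0.31 of the chosen probe set.

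Srsf2, which also acts in transcription elongation, read 18768 and 17535 with LIF against 16073 and 14596 without it (-0.24, SE 0.16, adjusted p = 0.635). Srsf3, which couples splicing to mRNA export, read 16631 and 17092 with LIF against 14410 and 15193 without it (-0.19, interval -0.56 to 0.18). For both genes the groups lay apart, by 1.18-fold and 1.14-fold. Further Srsf2 probe sets gave -0.17 and -0.24. A far dimmer one, at 113.7 and 232.5 with LIF against 250.1 and 251.8 without it, lay apart the other way (0.63). Further Srsf3 probe sets gave differences from -0.22 to 0.02. Srsf6 read 13475 and 15338 with LIF against 11300 and 13595 without it (-0.21), with overlapping groups. A downward lean was common among bright probe sets, since 13 of 14 regulators with a mean signal over 10000 read lower without LIF and only 24.0% of all tested genes in that range read higher. Srsf12, a divergent SR protein, went the other way at a dim signal, with 52.7 and 59.7 with LIF against 135.6 and 79.0 without it. Its difference of 0.88 had an SE of 0.48 and an adjusted p of 0.561, and it was 0.49 without array 1 of the group lacking LIF. The other SR proteins, Srsf4, Srsf5, Srsf9, Srsf10 and Srsf11, had differences between -0.03 and 0.12 and overlapping groups. Srsf10, which turns from activator to repressor when dephosphorylated, read 4905 and 4344 with LIF against 5570.0 and 3926 without it.

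The hnRNP genes kept to a narrow range on their chosen probe sets. These proteins coat nascent transcripts and often silence exons. All 19 tested members had an interval inside 2-fold, and their differences ran from -0.29 to 0.36 with a median of -0.06. All had mean signals over 1000, where most genes had such intervals (86.2% up to 10000 and 95.1% above). Hnrnpa1, the classical antagonist of SR proteins, read 5462 and 7786 with LIF against 5839 and 7914 without it (0.06, SE 0.24, interval -0.51 to 0.63). On that gene the 2 arrays of a group differed by more than the groups did, and its sign changed with a common median (-0.23), so no direction can be given. Hnrnpa2b1, Hnrnpu and Hnrnpab had differences of -0.14, -0.09 and -0.05, each with overlapping groups, and that of Hnrnpu turned to 0.02 with quantile normalization. Another Hnrnpab probe set, at 7391 and 13459 with LIF against 5412 and 8999 without it, gave -0.52 with overlapping groups. Its remaining ones gave differences from -0.06 to 0.15.

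At the ends of the hnRNP range stood Hnrnpul2 and Hnrnpr. Hnrnpul2, a relative of the nuclear scaffold protein Hnrnpu, read 1680 and 1723.5 with LIF against 2029 and 2361 without it (0.36, SE 0.18, adjusted p = 0.530). Both arrays without LIF were higher, yet its other probe set read the opposite way (-0.09). Hnrnpr read 5626 and 6779 with LIF against 5270.5 and 4849 without it (-0.29, SE 0.18, adjusted p = 0.604). The mean of its probe sets gave -0.56, and its brightest plain probe set, at 204 and 38.3 with LIF against 188 and 3.7 without it, gave -1.74. Hnrnpf, which binds runs of G, read 18466 and 20946 with LIF against 15298 and 17085 without it (-0.28, SE 0.17, adjusted p = 0.594), and its 4 probe sets all had negative differences. The chosen probe sets of Hnrnpf, Hnrnpa1, Hnrnpab and Hnrnpr are of a kind that can also bind related transcripts. Those of Srsf2, Sf3b2 and Sf3b5 are among the others of this kind.

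Subunits of the U2 particle leaned downward by small amounts. Of 9 tested Sf3a and Sf3b genes 8 had negative differences, the median was -0.11, and all 9 intervals lay inside 2-fold. Their mean signals lay between 1000 and 10000, where 43.7% of all tested genes read higher without LIF. Within number 1 the median was -0.28 and within number 2 it was 0.05, so the lean was not shared by both numbers. Sf3b1, the subunit that contacts the branch point, read 7160 and 7472 with LIF against 5849 and 7976 without it (-0.10, interval -0.57 to 0.37). Sf3b5 had tight groups that lay apart, at 8784 and 8754.5 with LIF against 7252 and 7317 without it (-0.27, SE 0.16, adjusted p = 0.589). Sf3b2 read 5723 and 7938 with LIF against 5066 and 5945 without it (-0.30, adjusted p = 0.669), with overlapping groups. Sf3a1 had a difference of -0.10 (interval -0.63 to 0.44).

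**Figure D2:**
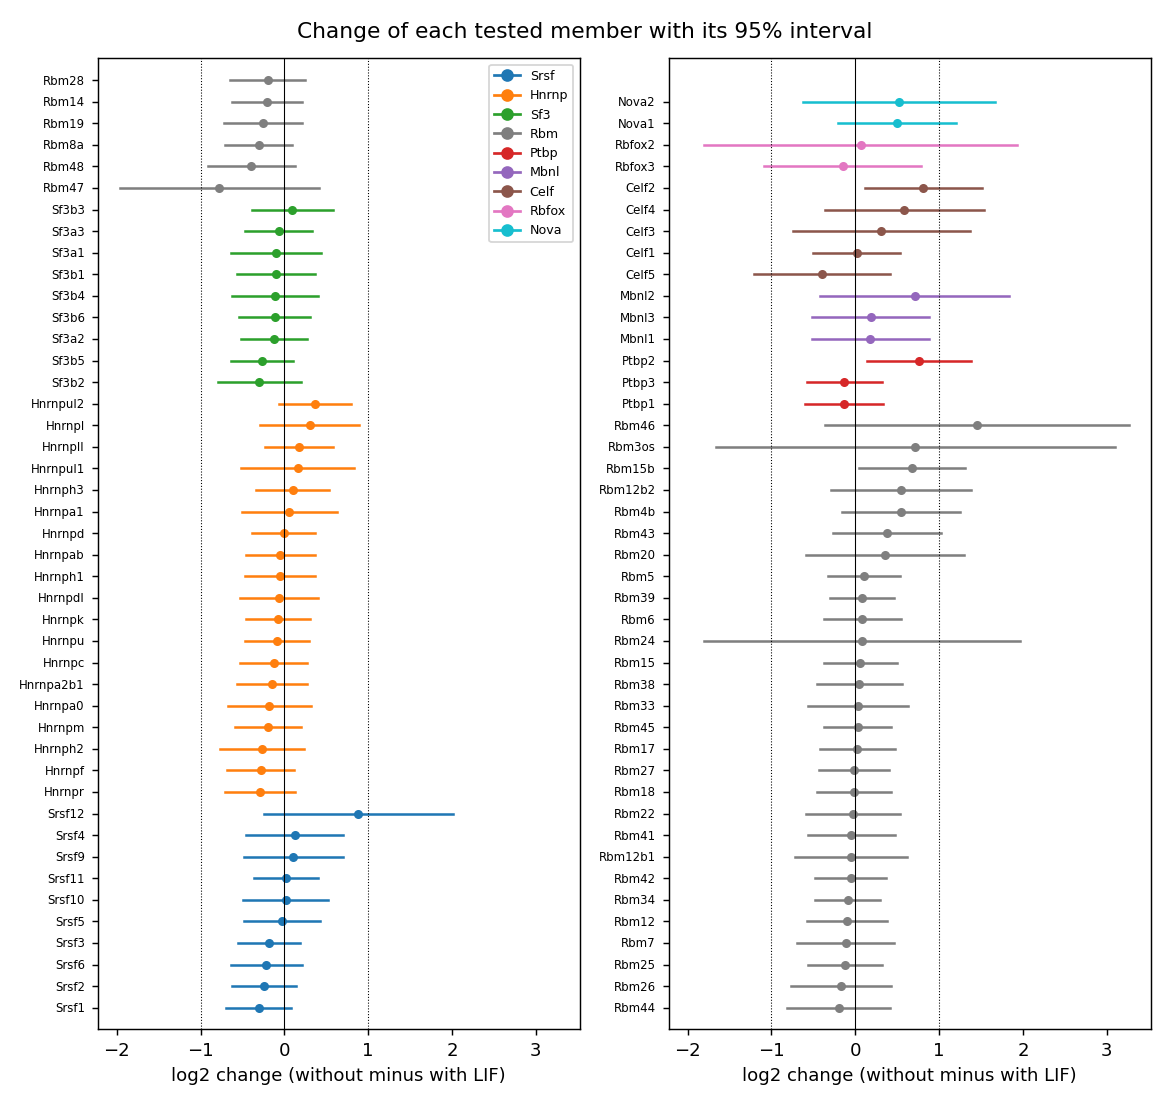
Each of the 87 tested regulators is shown with its log2 difference (point, without LIF minus with LIF) and 95% interval from the limma fit (line), coloured by family, with dotted lines at a 2-fold change. All 19 Hnrnp and all 9 Sf3 intervals lie between the dotted lines, and those of Rbm46, Rbm3os, Rbm24 and Rbfox2 are the widest.

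Ptbp2 had the smallest p among the regulators. The Ptbp proteins bind pyrimidine-rich intron sequences and repress exons, and Ptbp1 lowers Ptbp2 outside the nervous system by making its mRNA skip an exon, which leads to decay. Ptbp2 read 2583 and 1773 with LIF against 4363 and 3001 without it. Both arrays without LIF were higher than both with LIF, and the difference was 0.76 within number 1 and also 0.76 within number 2. The fitted difference was 0.76 (1.69-fold; SE 0.26; interval 0.13 to 1.38; unadjusted p = 0.0238; adjusted p = 0.358). Its other probe set, at 85.1 and 94.7 with LIF against 160.5 and 107.2 without it, gave 0.55. Without array 2 of the group lacking LIF, Ptbp2 passed with a difference of 1.03. Without array 1 of that group, or without array 2 of the LIF group, the difference was 0.49 and did not pass, and with a common median it was 0.46.

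The same fit with the array number as a replicate block gave Ptbp2 an adjusted p of 0.00581 and Mbnl2 one of 0.0361, and these 2 regulators were the only ones called (2.30% of 87, against 6.75% of all tested genes). Ptbp1 did not mirror Ptbp2. It read 10626 and 8126 with LIF against 7884 and 9093 without it (-0.13, interval -0.60 to 0.33), and its difference was -0.43 for number 1 but 0.16 for number 2. A pair of dimmer Ptbp1 probe sets gave 0.28 and 0.96, so the direction for this gene depends on the probe set. Ptbp3 read 1321.5 and 1226 with LIF against 1220 and 1103 without it (-0.13, interval -0.58 to 0.31).

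Mbnl genes encode zinc finger proteins that oppose the splicing pattern of pluripotent cells. All 3 had positive differences with the deposited scaling and 0 passed. Mbnl2 read 644 and 1170 with LIF against 876 and 2300 without it, and the groups overlapped because the arrays numbered 2 were the higher ones in both. The difference was 0.71 (1.64-fold; SE 0.48; adjusted p = 0.643), made up of 0.44 within number 1 and 0.98 within number 2. Without array 1 of the group lacking LIF, Mbnl2 passed with a difference of 1.41, whereas without array 2 of that group the difference was 0.01. Without array 1 or array 2 of the LIF group it was 0.28 or 1.14, and the mean of all Mbnl2 probe sets gave 0.00. The summed primitive endoderm markers were also highest on array 2 without LIF, and their part in this value was not tested.

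Mbnl1 read 812 and 530 with LIF against 887.5 and 621 without it (0.18, SE 0.30, adjusted p = 0.872). Mbnl3 read 218 and 265 with LIF against 312 and 238 without it (0.18, SE 0.29). Groups overlapped for both genes, and both differences changed sign with a common median (-0.12 and -0.11). A second Mbnl3 probe set, at 103.6 and 94.1 with LIF against 168 and 155 without it, had groups apart and gave 0.71.

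**Figure D3:**
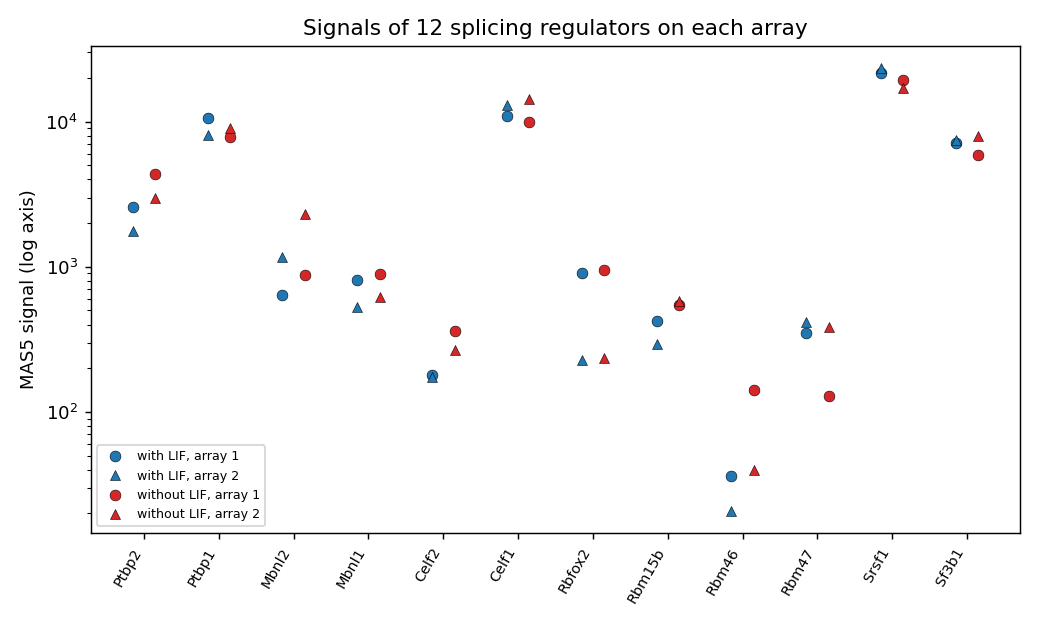
MAS5 signals of 12 splicing regulators are plotted on a log axis for each array, with LIF in blue and without LIF in red, circles for arrays numbered 1 and triangles for arrays numbered 2. Ptbp2, Celf2, Rbm15b and Rbm46 show both red symbols above both blue ones, whereas in Rbfox2 the circles (906 and 951) stand above the triangles (228 and 237) whatever the LIF condition.

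The promoters of Ptbp2 and Mbnl2, the 2 genes called with the replicate block, are shown with that of Srsf1, the SR protein with the smallest p in the downward direction. The sequences are from RefSeq on build GRCm38.p6, 250 bases before to 50 after the annotated start, 5′ to 3′ on the gene's strand. Capitals mark GGGCGG or its reverse complement, the GC box bound by SP and KLF factors.
Ptbp2, chr3:119783339-119783638, minus strand: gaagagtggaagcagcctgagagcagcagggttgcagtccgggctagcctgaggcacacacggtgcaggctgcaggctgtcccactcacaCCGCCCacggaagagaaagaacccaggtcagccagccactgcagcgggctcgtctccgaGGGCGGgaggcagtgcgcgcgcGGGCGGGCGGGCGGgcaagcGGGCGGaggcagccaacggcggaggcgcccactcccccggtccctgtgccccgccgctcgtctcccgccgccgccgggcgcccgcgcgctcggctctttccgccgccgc
Mbnl2, chr14:120275419-120275718, plus strand: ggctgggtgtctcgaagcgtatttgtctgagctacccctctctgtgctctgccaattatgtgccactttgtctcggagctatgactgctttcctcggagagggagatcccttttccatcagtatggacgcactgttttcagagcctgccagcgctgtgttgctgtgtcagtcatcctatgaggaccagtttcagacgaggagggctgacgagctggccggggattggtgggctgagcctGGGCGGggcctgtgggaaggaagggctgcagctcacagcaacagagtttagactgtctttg
Srsf1, chr11:88047123-88047422, plus strand: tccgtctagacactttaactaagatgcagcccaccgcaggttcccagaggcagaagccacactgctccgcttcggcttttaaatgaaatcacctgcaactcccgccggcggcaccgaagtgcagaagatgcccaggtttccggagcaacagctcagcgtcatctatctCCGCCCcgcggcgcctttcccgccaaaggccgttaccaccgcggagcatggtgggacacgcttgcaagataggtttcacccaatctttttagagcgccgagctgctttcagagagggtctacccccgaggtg

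The Ptbp2 promoter held 6 GC boxes, some of them overlapping, and 36 CpG dinucleotides. That of Mbnl2 held 1 GC box and 10 CpGs, and that of Srsf1 1 GC box and 22 CpGs. Promoters were listed for 77 of the 91 genes, 111 in all. A GC box on either strand occurred in 58.6% of these and in 35.7% of all 32851 listed promoters of 300 bases, and the median number of CpGs was 23 against 7. The letters CCGGAAG, a core of ETS factor sites, occurred in 19.8% against 8.86%, and the E-box CACGTG in 9.91% against 7.15%. The STAT pattern TTCNNNGAA occurred in 9.01% against 8.30%. The letters of the 3 latter patterns were in none of the 3 printed promoters. A match of letters is a description of the sequence and says nothing of binding.

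CELF proteins act on exons in muscle, heart and brain, and several are mainly neuronal. Of 5 tested genes 4 had positive differences, with a median of 0.31, and 0 passed. Celf2 read 180 and 174 with LIF against 359.5 and 268 without it. Both arrays without LIF were higher, by 1.00 within number 1 and 0.62 within number 2 on the log2 scale, and the fitted difference was 0.81 (1.75-fold; SE 0.30; interval 0.11 to 1.51; adjusted p = 0.383). A pair of further Celf2 probe sets had groups apart in the same direction (0.93 and 0.43), and a dim one, at 20.6 and 28.5 with LIF against 47.9 and 10.4 without it, gave -0.12. Celf1, the widely expressed member, read 10902 and 12948 with LIF against 10022 and 14431 without it (0.02, interval -0.50 to 0.54), and its sign changed with a common median (-0.28). Among the mainly neuronal members, Celf4 read 126 and 102.5 with LIF against 130 and 223 without it (0.59, SE 0.40), and most of that difference was within number 2 (1.12, against 0.05 within number 1). Celf3 had a difference of 0.31 (SE 0.45) and Celf5 one of -0.40 (SE 0.34), both with overlapping groups. Celf6 lay below the filter, at 28.0 and 29.7 with LIF against 32.5 and 9.9 without it.

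Nova1 and Nova2, neuronal splicing regulators first known as autoantigens, were dim. Nova1 read 162 and 208 with LIF against 244 and 275.5 without it, higher in both arrays without LIF (0.50, SE 0.30, adjusted p = 0.600). Its other probe set, below the filter at 14.0 and 17.1 with LIF against 40.3 and 2.8 without it, gave -0.54. The mean of its probe sets gave -0.02. Nova2 read 66.0 and 124 with LIF against 168 and 99.6 without it (0.52, SE 0.48), with a difference of 1.35 within number 1 and -0.32 within number 2. Of 9 measured neural markers 3 had both arrays without LIF above those with LIF and 1 had them below. Over all tested genes the shares were 27.3% and 15.2%. Neurog2, among those 3, lay below the filter, at 4.7 and 6.2 with LIF against 54.3 and 31.1 without it. The part of neural cells in the values of Celf2, Nova1 and Ptbp2 was not tested, and in bulk RNA fewer cells of a type and less RNA per cell cannot be told apart.

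Rbfox2, the Rbfox gene known from ES cells, gave different pictures on its 4 probe sets. The brightest read 906 and 228 with LIF against 951 and 237 without it, so the arrays numbered 1 were high and those numbered 2 low. The difference between groups was 0.06 with an SE of 0.79 and an interval of -1.80 to 1.93, it turned to -0.23 with a common median, and it ran from -0.94 to 1.07 as single arrays were left out. Another Rbfox2 probe set read 209 and 215 with LIF against 292 and 290.0 without it, tight within each group and apart between them (0.46). A dimmer one, at 86.3 and 111 with LIF against 112 and 138 without it, also had groups apart in that direction (0.35), and the remaining one gave -0.04 with overlapping groups. The summed neural and fibroblast markers were also higher on the arrays numbered 1 in both groups, and their part in the Rbfox2 signal was not tested. Rbfox3 read 109 and 90.4 with LIF against 90.1 and 88.5 without it (-0.15, SE 0.40). Rbfox1 lay below the filter, at 29.3 and 15.9 with LIF against 32.3 and 3.6 without it.

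The numbered Rbm genes formed the largest family, with 34 tested members, a median difference of -0.01 and 0 calls. For 25 of them the interval lay inside 2-fold. Rbm15b, an adaptor of the complex that methylates adenosines in RNA, read 425 and 293 with LIF against 548 and 583 without it. The difference was 0.68 (1.60-fold; SE 0.27; interval 0.05 to 1.31; adjusted p = 0.422), made up of 0.37 within number 1 and 0.99 within number 2. Without array 2 of the LIF group the difference was 0.41. A second probe set read the same way (0.40), and a dim one, at 75.7 and 34.3 with LIF against 54.2 and 7.2 without it, gave -1.37, so that the mean of the 3 was -0.10.

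Rbm46, a cytoplasmic RNA-binding protein of germ cells, showed the largest difference of any tested regulator at a low signal. It read 36.3 and 20.9 with LIF against 142 and 39.9 without it (1.45; 2.73-fold; SE 0.76; interval -0.36 to 3.26; adjusted p = 0.553). Both arrays without LIF were higher, but that of number 1 was far above that of number 2, and without array 1 of that group the difference was 0.53. With LIF the signal of array 2 lay below the filter value of 22.9. A second Rbm46 probe set read 36.6 and 27.6 with LIF against 62.6 and 54.7 without it (0.88). The antisense transcript Rbm46os, not tested because of its low signal, read 33.1 and 27.3 with LIF against 8.8 and 9.8 without it.

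Rbm47, an RNA-binding protein of epithelia that also assists RNA editing, had the most negative difference. It read 347 and 417 with LIF against 128 and 386 without it, so the array of number 1 without LIF made the difference of -0.78 (SE 0.50, adjusted p = 0.627). Without array 1 of that group the difference was 0.02, and without array 2 of that group it was -1.58 and passed. Its second probe set read 118 and 87.5 with LIF against 60.3 and 67.7 without it, apart and lower (-0.67). A further Rbm47 probe set, below the filter at 1.8 and 0.7 with LIF against 18.9 and 4.5 without it, gave 3.04. The mean of all its probe sets, that dim probe set included, gave 0.53.

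Among Rbm genes of the general machinery, Rbm8a, the Y14 subunit of the exon junction complex, read 10291 and 10381 with LIF against 9128 and 7646 without it (-0.31, SE 0.17, adjusted p = 0.570). Rbm48, a protein of the minor spliceosome, read 884.5 and 913 with LIF against 606 and 773 without it (-0.39, SE 0.22, adjusted p = 0.576). Rbm19, which acts in ribosome production, read 908 and 883 with LIF against 719 and 782.5 without it (-0.26, SE 0.20). Each of the 3 had both arrays without LIF below both with LIF.

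In the other direction Rbm4b, a regulator of exon choice, read 175 and 150.3 with LIF against 229 and 244 without it (0.54, SE 0.30, adjusted p = 0.566), while a further probe set of it had groups apart in the opposite direction (-0.50). Rbm12b2 read 182 and 207 with LIF against 376 and 214 without it (0.55, SE 0.35), and its near-identical neighbour Rbm12b1 had a difference of -0.05. Near-identical copies may share signal, so these values are uncertain. The muscle and heart regulators Rbm20 and Rbm24 were dim. Rbm20 read 75.6 and 89.2 with LIF against 100.0 and 110.2 without it (0.35, SE 0.40), and Rbm24 read 42.6 and 21.0 with LIF against 49.1 and 20.3 without it (0.08, SE 0.80, and -0.29 with quantile normalization). The summed muscle and heart markers were highest on array 1 without LIF, as was Rbm24 but not Rbm20, and their part in these values was not tested. Rbm11, a member known from brain that was not tested, was near the floor with LIF, at 2.4 and 2.0, and read 37.9 and 4.8 without LIF.

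Different probe sets of the same regulator often disagreed in sign. The 91 genes had 268 single-symbol probe sets, and 61 of the tested genes had more than 1 above the filter. All such probe sets shared a direction for 25 genes and were of mixed direction for 36. The same count was not made over all tested genes, so this is no trait of the regulators. Some mixed genes had differences close to 0, such as Hnrnph1 (-0.0525 and 0.0016). Mbnl2 was one of the mixed genes. Its brightest probe set was 1.82 times as high on array 2 as on array 1 with LIF and 2.63 times without LIF. The next brightest was instead higher on number 1, with 567 and 140.3 on arrays 1 and 2 with LIF and 795 and 178 on those without. Another read 321 and 96.3 with LIF against 426 and 116 without it. Within each number these 3 probe sets all read higher without LIF, with group differences of 0.71, 0.41 and 0.34. A dimmer pair gave -0.17 and -1.30.

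**Figure D4:**
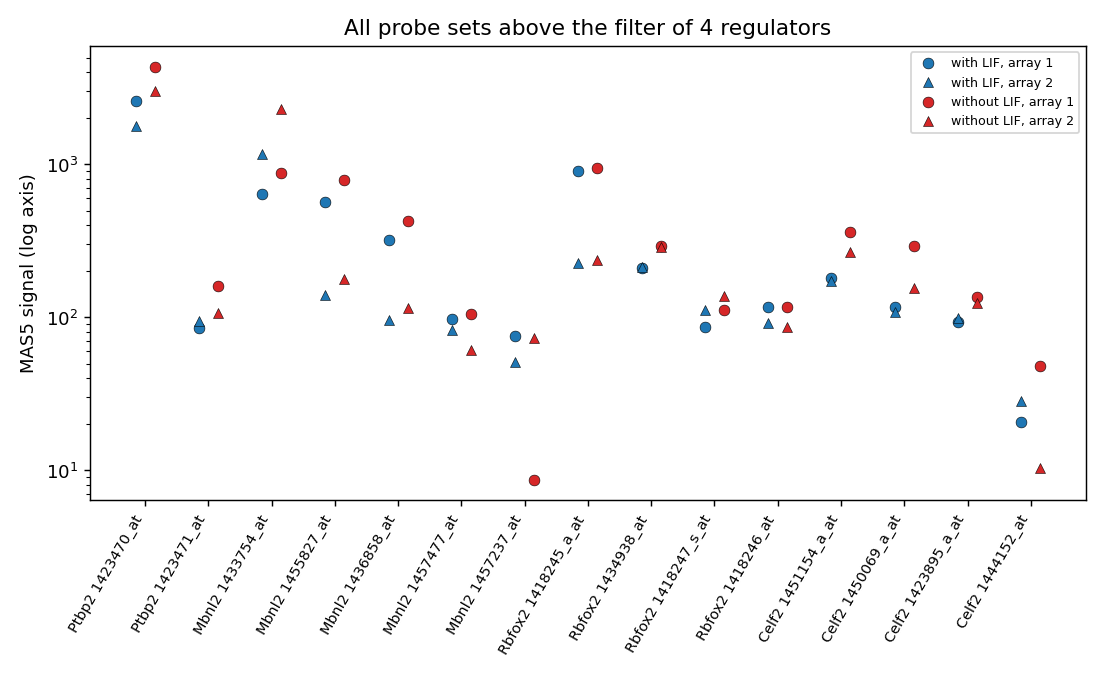
All probe sets above the filter of Ptbp2, Mbnl2, Rbfox2 and Celf2 are plotted by MAS5 signal on a log axis, with LIF in blue and without LIF in red, circles for arrays numbered 1 and triangles for those numbered 2. The Mbnl2 probe sets split by number in opposite directions, while the brighter probe sets of Ptbp2 and Celf2 separate by LIF.

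Sf3b1 had a probe set of the same kind. On arrays 1 and 2 it read 6670 and 2101 with LIF against 5149 and 1594 without it, while the chosen probe set of this gene varied between 5849 and 7976 over the 4 arrays. Rbm39 and Rbm25 had such probe sets too. An Rbm39 probe set read 1485 and 49.5 with LIF against 1192 and 48.3 without it, while the chosen one varied between 4157 and 4485. An Rbm25 probe set read 1109 and 459.6 with LIF against 672.6 and 219.8 without it. Actb signals taken 3' over 5', a measure of how far labelling reached along a transcript, gave 1.32 and 1.44 for number 1, but 1.83 and 1.77 for number 2. Its part in the split of these probe sets was not tested.

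Within the array numbers the differences of 25 regulators were positive in both, of 28 negative in both, and of 34 opposite (39.1%, against 34.9% of all tested genes). The median difference of the regulators was -0.05 within number 1 and 0.02 within number 2. Ptbp2, Celf2, Rbm46, Rbm15b and Mbnl2 were positive in both, and Nova2 and Rbm3os were among those of opposite sign.

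**Figure D5:**
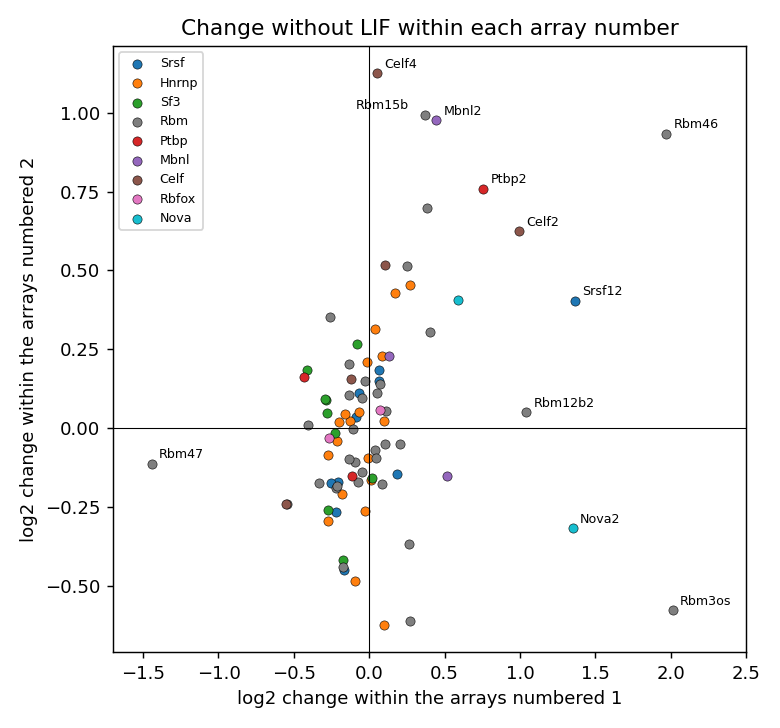
For each tested regulator the log2 difference (without LIF minus with LIF) within the arrays numbered 1 is plotted against that within the arrays numbered 2, coloured by family. Most points lie near 0 on both axes. Ptbp2 sits at 0.76 on both, while Rbm47 (-1.44 and -0.11) and Nova2 (1.35 and -0.32) differ between them.

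Other genes of splicing, from 3 lists written by function, gave 0 calls as well. Of 59 tested core spliceosome genes 0 passed and 3 had an unadjusted p under 0.05, against 10.9% of all tested genes. The median difference was -0.12 with 15 higher and 44 lower. The median signal of this list was 2837, and between 1000 and 10000 only 43.7% of all tested genes read higher. Cdc5l, a core subunit of the complex that activates the spliceosome, stood apart. It read 8923.5 and 11436 with LIF against 4254 and 5577 without it, a difference of -1.05 (2.07-fold; SE 0.21; adjusted p = 0.123). It was -1.07 within number 1 and -1.04 within number 2, and the replicate block gave an adjusted p of 0.000433. As single arrays were left out it ran from -1.25 to -0.86, and it passed without array 2 of the group lacking LIF (-1.25). Snrnp40, of the U5 particle, read 6991 and 6814.5 with LIF against 5750 and 3462.5 without it (-0.63, adjusted p = 0.429), and passed with the block (0.0400) and without array 1 of the group lacking LIF (-1.0). Without array 2 of that group its difference was -0.26, and its brightest plain probe set gave -0.29. Crnkl1 had a difference of -0.49 (adjusted p = 0.442). U2af1, which reads the 3' splice site, had one of -0.28 (adjusted p = 0.591).

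Of 51 tested regulators outside the 9 families 0 passed and 3 had an unadjusted p under 0.05, against 10.9% of all tested genes. Their differences were positive for 26 and negative for 25, with a median of 0.00. Esrp1, which sets epithelial splicing patterns, read 490 and 222 with LIF against 933 and 1391 without it (1.79; 3.46-fold; SE 0.40; adjusted p = 0.154, and 0.00756 with the block). It also passed without array 1 of the LIF group (2.36) and without array 1 of the group lacking LIF (2.08), but not without array 2 of the LIF group (1.22) or array 2 of the group lacking LIF (1.5). Srrm4, the activator of neuronal microexons, read 21.3 and 30.5 with LIF against 72.6 and 111 without it (1.82, SE 0.57, adjusted p = 0.313). Pcbp4, a KH-domain protein, read 4109 and 2619 with LIF against 6491 and 5761 without it (0.90, adjusted p = 0.228, and 0.00359 with the block). For each of these 3 genes both arrays without LIF were higher. Tra2b, an SR-like protein, had a difference of -0.07 that changed sign with quantile normalization (0.03).

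Kinases that phosphorylate SR proteins gave 0 calls and 0 unadjusted p-values under 0.05 among 9 tested genes, with 7 higher, 2 lower and a median of 0.10. Clk4 read 816.5 and 962 with LIF against 1010.2 and 1426 without it (0.44, adjusted p = 0.563). Srpk2 and Srpk3 had differences of 0.31 and 0.37, and Clk1 one of 0.12 that changed sign with a common median (-0.17).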

How the data were processed

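RNA of 4 samples of CGR8 ES cells was hybridised to 1-colour oligonucleotide arrays. The deposited values are MAS5 signals, a linear intensity per probe set scaled by the authors, with MAS5 named in the submitters' processing notes. The MAS5 version, target value and detection calls are not given in the sources used here. No depth exists for arrays, and precision is limited by 2 arrays per group.

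Of 45101 probe sets, 64 controls were left out, 34945 carried 1 symbol and 932 several. All columns were used. Signals were floored at 0.1 (1 value), converted to log2 and kept in the authors' scaling. Genes were represented by their brightest probe set and tested when the mean exceeded the 30th percentile of probe sets (signal 22.9), with limma 3.58.1 in R 4.3.3 (trended empirical Bayes, 2 residual degrees of freedom, Benjamini-Hochberg adjustment over 14445 genes, threshold 0.05), after testing on simulated data. An exact permutation test of 2 against 2 arrays cannot go below p = 0.333 and was not used. Of the chosen member probe sets, 18 and 12 have suffixes that mark transcripts of one gene in several forms or possible cross-binding.

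Named are the 10 members of smallest unadjusted p in each direction, the brightest of each family, a fixed set of known regulators, and of each other list the 3 genes of smallest p with a fixed few. Remaining members of small families, Srsf and Rbm neighbours and further probe sets were added after their values were seen. The members, lists and markers were chosen with earlier results of these data known. Alternatives were other filters, a pseudocount, quantile normalization, a common median, no trend, other probe set choices, a block for the array number and leaving out each array. Promoter sequences are from RefSeq.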

Additional observations from a re-analysis of the deposited data

How the results depend on the processing

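The count of regulators called stayed at 0 under other filters, a pseudocount, quantile normalization, a common median, no trend and the 2 other choices of probe sets. With the array number as a replicate block it was 2, and as single arrays were left out it ran from 0 to 2. The labels do not say what the numbers share, and same-numbered arrays deviated together with r = 0.291 over all tested genes and 0.49 over the regulators, from only 2 pairs. Over all tested genes the block raised calls from 21 to 975. Calls among the other splicing genes were 4 with the block. These were 2 of 59 core spliceosome genes, 2 of 51 other regulators and 0 of 9 kinases, against 6.75% of all tested genes. Calls over all tested genes were 17 with no filter, 41 with the stricter filter, 40 with the pseudocount, 10 with quantile normalization, 131 with a common median, 0 with no trend, 12 with the mean of probe sets and 16 with plain probe sets. Without single arrays they ran from 7 to 496, and the lone array of a group is then assumed to vary like the others.

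The count of regulators at least 2-fold apart (1) was 3 with no filter, 0 with the stricter filter, 2 with the mean of probe sets and 1 to 6 without single arrays. The regulators' median difference was -0.32 with a common median and -0.06 to 0.02 without single arrays.

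Several differences changed sign, among them the large ones of Celf2, Rbm47, Mbnl2 and Rbm15b. Each of these did so with another choice of probe sets, which brings in probe sets dimmer than the chosen ones. Why probe sets of the same gene differ was not tested. With quantile normalization Hnrnpu was 0.02, Rbm24 -0.29 and Tra2b 0.03. With a common median, which lowers every difference, Celf1 was -0.28, Rbfox2 -0.23, Mbnl1 -0.12, Mbnl3 -0.11, Hnrnpa1 -0.23, Rbm24 -0.22 and Clk1 -0.17. With the mean of all probe sets Rbm15b was -0.10, Nova1 -0.02, Mbnl2 0.00, Rbm47 0.53, Ptbp1 0.37, Hnrnpa1 -0.13 and Sf3a1 0.74. For Rbm47, Nova1 and Sf3a1 that mean includes a probe set below the filter. That of Sf3a1 read 1.9 and 14.6 with LIF against 34.5 and 38.3 without it. With plain probe sets Celf2 was -0.12, Srsf2 0.63, Ptbp1 0.28, Hnrnpa1 -0.30, Hnrnpa2b1 0.14 and Tra2b 0.12. As single arrays were left out, the ranges crossed 0 for Rbm47 (-1.58 to 0.02), Hnrnpab (-0.19 to 0.09), Celf1 (-0.25 to 0.28), Rbfox2 (-0.94 to 1.07), Ptbp1 (-0.33 to 0.06), Mbnl1 (-0.13 to 0.49), Mbnl3 (-0.01 to 0.38), Hnrnpa1 (-0.20 to 0.32), Hnrnpa2b1 (-0.30 to 0.01), Sf3b1 (-0.32 to 0.12), Sf3a1 (-0.37 to 0.17), Rbm24 (-0.56 to 0.72), Srpk2 (-0.07 to 0.69), Tra2b (-0.20 to 0.06) and Clk1 (-0.33 to 0.57). For dim regulators, those with signals under 100, no interval was narrow enough to exclude a 2-fold change.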
